A study of Homo sapiens with 12 samples.

Results

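The expression of 9 genes, CYP1A1, CYP1B1, CYP17A1, CYP24A1, CYP27B1, CYP3A5, AHR, AHRR and TIPARP, was described in HK-2 cells treated with 3 nephrotoxic drugs. The genes are 6 cytochrome P450 genes, the aryl hydrocarbon receptor gene and 2 of its feedback genes, taken by gene name from the 58735 genes of the count table. They were chosen by name with their counts over the 4 groups already known from an earlier analysis, so that the values of the 9 genes, and the counts of those that pass a threshold, are given as a description and not as a test. All 12 samples were of HK-2, a line of human proximal tubule cells that was immortalized with viral oncogenes. The control group received water, and the other groups received the X-ray contrast agent iohexol (75 mg I/mL), the platinum antitumor drug cisplatin (5 μM) or the antibiotic vancomycin (4 mM). The treatment lasted 48 h in the drug groups and each group had 3 samples of poly(A)-selected RNA. The labels do not say whether the 3 samples of a group came from separate cultures, so their spread may be technical.

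Cytochrome P450 enzymes are heme proteins that insert oxygen into drugs, fatty acids, sterols and vitamins, with electrons passed to them by redox partners such as POR. The aryl hydrocarbon receptor, encoded by AHR, waits in the cytoplasm in a complex with HSP90 chaperones, binds planar ligands, moves to the nucleus and pairs with ARNT on the DNA core GCGTG. CYP1A1, CYP1B1, AHRR and TIPARP are textbook targets of this pair, and AHRR and TIPARP in turn restrain the receptor. In the proximal tubule the enzymes CYP27B1 and CYP24A1 make and destroy active vitamin D, and the vitamin D receptor activates CYP24A1.

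The promoters of 3 targets are shown because the receptor's core motif can be read in them. They were picked for holding it, so they do not show how common the motif is among targets. The sequences are the 250 bases before the start of transcription from RefSeq on GRCh38.p14, and capitals mark GCGTG, or CACGC where the core lies on the other strand. CYP1A1 is on the minus strand (chr15:74725529-74725778). AHRR (first of its promoter windows, chr5:321464-321713) and TIPARP (first of its windows, chr3:156674340-156674589) are on the plus strand.
CYP1A1: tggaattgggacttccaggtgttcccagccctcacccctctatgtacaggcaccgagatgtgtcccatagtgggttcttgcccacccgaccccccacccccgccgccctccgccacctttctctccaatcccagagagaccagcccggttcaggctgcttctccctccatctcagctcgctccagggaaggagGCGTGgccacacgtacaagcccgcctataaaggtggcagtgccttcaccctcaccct
AHRR: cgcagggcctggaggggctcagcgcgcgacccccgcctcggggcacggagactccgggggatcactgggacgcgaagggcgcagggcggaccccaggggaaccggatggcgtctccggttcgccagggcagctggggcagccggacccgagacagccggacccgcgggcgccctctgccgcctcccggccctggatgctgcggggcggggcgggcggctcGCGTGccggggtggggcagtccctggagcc
TIPARP: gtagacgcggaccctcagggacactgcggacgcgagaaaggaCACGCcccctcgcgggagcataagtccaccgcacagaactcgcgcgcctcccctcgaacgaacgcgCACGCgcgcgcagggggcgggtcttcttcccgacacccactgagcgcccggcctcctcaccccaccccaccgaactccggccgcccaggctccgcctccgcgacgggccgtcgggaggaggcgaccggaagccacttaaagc

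The CYP1A1 sequence held 1 core, beginning 57 bases before the start, at position -57. The AHRR sequence held 1 core at -30, which was also the only match here to the longer form TNGCGTG, and the TIPARP sequence held 2 cores on the other strand, at -208 and -142. The other AHRR window held 2 cores and the other TIPARP windows none. A promoter was in the RefSeq table for 6 of the 9 genes. The window of AHR itself had 1 core, within the 50 bases after the start, and those of CYP17A1 and CYP3A5 had none. Such letters are common, since 36.5% of 35116 promoter windows, which run from 250 bases before to 50 after the start, held GCGTG at least 1 time on either strand, 12.7% held it at least 2 times and 5.51% held TNGCGTG. A match is a description of the sequence and no binding was measured.

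Total counts ranged from 14057282 to 18177109 per sample. Levels are in CPM, counts scaled to the same library total after TMM normalization (factors of 0.885 to 1.13), and the floor of 3 counts corresponded to 0.177 to 0.218 CPM, which covers counting error only. Of 12 proximal tubule markers, 4 were above 1 CPM in the control group (SLC5A2, GGT1, ANPEP and MME), and the organic anion transporter SLC22A6 had 0 counts in every sample. The summed level of these markers spanned 231.6 to 274.3 CPM over the control samples. It spanned 237.5 to 270.2 CPM for iohexol, 193.2 to 210.9 CPM for cisplatin and 451.7 to 478.7 CPM for vancomycin. The epithelial markers KRT8, KRT18, KRT19 and EPCAM were above 1 CPM in every group. Markers of endothelium, fibroblasts and blood summed to 14.2 to 14.9 CPM without a drug, 10.4 to 11.8 CPM for iohexol, 5.73 to 6.53 CPM for cisplatin and 30.2 to 36.2 CPM for vancomycin, and their part in the results below was not tested. Of these 8 markers, PECAM1 and DCN were above 1 CPM in the control group and CD3E was at 0. Markers of other kidney cells summed to at most 2.87 CPM in any sample.

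DEGs were genes with an adjusted p under 0.05 and a change of more than 2-fold in edgeR's quasi-likelihood test of 3 drug against 3 control samples. By this rule iohexol had 2 of the 9 genes higher (CYP1A1 and CYP17A1) and 1 lower (CYP24A1), where 4.02% of all 15657 genes tested were up-regulated and 1.25% down-regulated. Cisplatin had 3 of 8 tested genes higher (CYP1A1, CYP24A1 and CYP27B1) and 0 lower, where 7.62% of 15876 genes were up-regulated and 8.72% down-regulated. For vancomycin 0 of 8 tested genes passed the rule in edgeR, in DESeq2 or in limma-voom. In edgeR 3 of them had an adjusted p under 0.05 but were short of 2-fold, and the share of all genes past that p alone is not given. Of 15819 genes tested with vancomycin, 10.8% were up-regulated and 7.65% down-regulated. The samples of drug and control did not overlap for 5 of 9 genes with iohexol (37.9% of all genes tested), for 6 of 8 with cisplatin (65.1%) and for 3 of 8 with vancomycin (63.2%). CYP1A1 lost the call with iohexol without any 1 of the control samples 1 and 2 and the iohexol samples 1 and 2, which left 2 or 3 genes called, and with cisplatin without the control sample 1 or 2 or the cisplatin sample 3, which left 2. With the replicate number as a block, iohexol again had 3 genes called, but CYP1A1 was lost and CYP1B1 gained. CYP1B1 also joined the iohexol genes in DESeq2 and limma-voom, which called 4. CYP1A1, at 9 counts in the control sample 1, and CYP17A1, at 1, passed the filter through the drug samples where they were high. With at least 10 counts required in every sample, only CYP24A1 was called with iohexol, and CYP24A1 and CYP27B1 with cisplatin. Because the genes were chosen with these comparisons known, nothing is read from these counts. The 3 comparisons share the same 3 control samples.

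**Figure D1:**
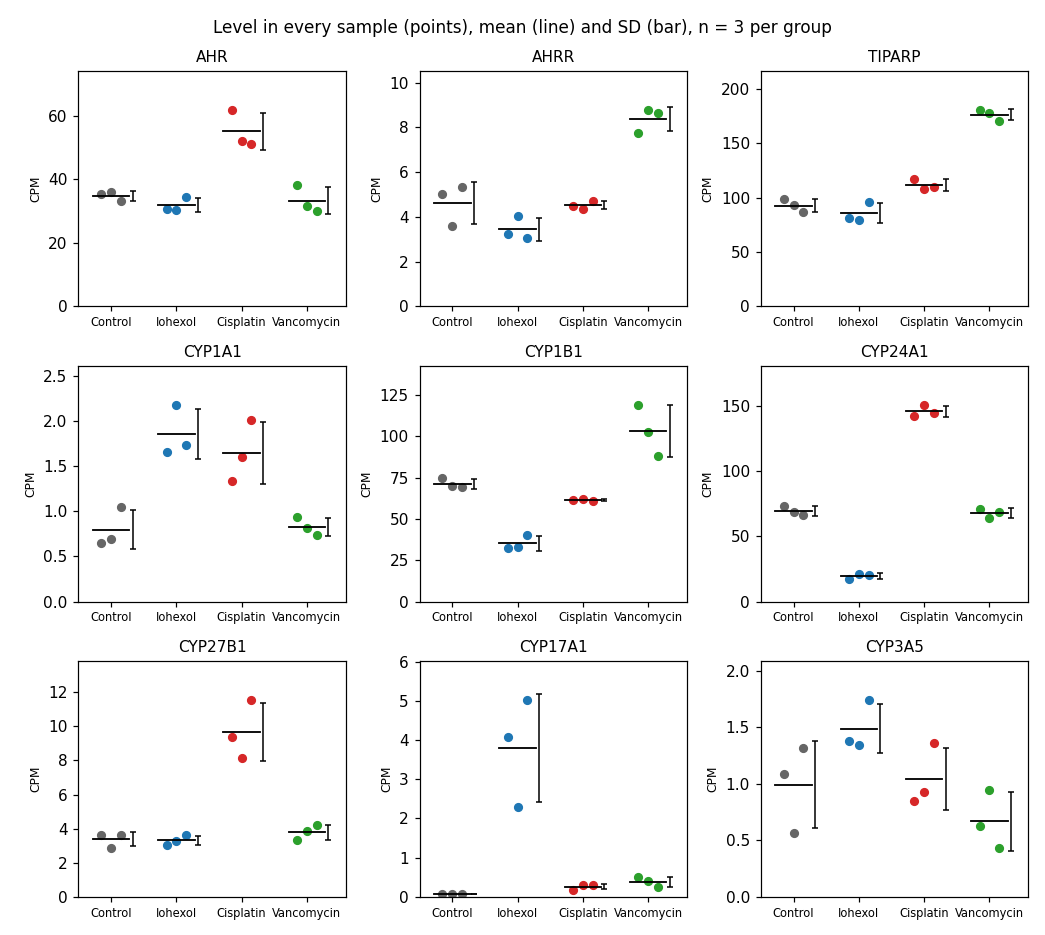
Level of the 9 genes in every sample (y axis, CPM from 0, a scale of its own in each panel; x axis, group), with points for samples, a line for the mean and a bar for the SD of 3 samples. CYP24A1 lies lowest with iohexol and highest with cisplatin, TIPARP and AHRR highest with vancomycin, and CYP17A1 is near 0 except with iohexol.

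AHR encodes the receptor that senses dioxin-like and tryptophan-derived ligands (chr7:16916359-17346152, plus strand). It was at 35.4, 35.9 and 33.1 CPM in the control samples, 30.8, 30.5 and 34.6 with iohexol, 61.9, 52.3 and 51.2 with cisplatin and 38.2, 31.8 and 30.1 with vancomycin. The cisplatin samples were all above every other sample, and the other 3 groups overlapped. The control mean was 34.8 ± 1.52 CPM (SD, n = 3) and the cisplatin mean 55.1 ± 5.87. The log2 fold change was 0.66 (SE 0.09) with cisplatin, short of 2-fold, and -0.11 (SE 0.11) and -0.10 (SE 0.11) with iohexol and vancomycin. In such bulk samples a change in the share of cells that use a gene and a change in RNA per cell cannot be told apart. Of the exonic bases of AHR, 32.3% overlap AC073332.1 on the opposite strand and AC019117.2, which had 42 and 0 counts over the 12 samples against 7311 for AHR.

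AHRR encodes the AHR repressor, a relative of the receptor that competes for ARNT (chr5:304176-438291, plus strand). Its counts were 69, 57 and 81 in the control samples, 47, 63 and 46 with iohexol, 74, 71 and 80 with cisplatin and 124, 130 and 140 with vancomycin. Vancomycin gave the highest 3 samples, without overlap with any other group, at 8.39 ± 0.550 CPM against 4.64 ± 0.933 in the control group. The log2 fold change was 0.81 (SE 0.19) with vancomycin, -0.40 (SE 0.23) with iohexol and -0.03 (SE 0.19) with cisplatin, the last of which turned to 0.19 with scaling by library size only. The iohexol and cisplatin samples overlapped the control samples. The same-strand neighbour PDCD6 shares 3.18% of the exonic bases of AHRR and was at 53.3 CPM in the control group and 68.8 with vancomycin.

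TIPARP encodes an ADP-ribosyltransferase that modifies AHR and lowers its activity (chr3:156673235-156706770, plus strand). The control samples had 98.6, 93.1 and 86.5 CPM, the iohexol samples 81.7, 79.8 and 96.2, the cisplatin samples 117.5, 107.5 and 109.6, and the vancomycin samples 180.5, 177.6 and 170.7. The order of the groups was iohexol and control, which overlapped, then cisplatin, then vancomycin, which were each separate from the group before. The means were 92.8 ± 6.03 CPM without a drug, 111.5 ± 5.28 with cisplatin and 176.3 ± 5.01 with vancomycin. These are log2 fold changes of 0.26 (SE 0.07) and 0.88 (SE 0.09), and with iohexol the value was -0.09 (SE 0.10).

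CYP1A1 encodes the hydrocarbon-oxidizing enzyme that is the classical readout of AHR activity (chr15:74719542-74725610, minus strand). It was counted 9, 11 and 16 times in the control samples, 24, 34 and 26 times with iohexol, 22, 26 and 34 times with cisplatin and 15, 12 and 12 times with vancomycin. Every iohexol and cisplatin sample was above every control and vancomycin sample, and within both of these pairs the groups overlapped. The means were 0.798 ± 0.221 CPM in the control group, 1.86 ± 0.278 with iohexol, 1.65 ± 0.340 with cisplatin and 0.829 ± 0.101 with vancomycin. The log2 fold changes were 1.23 (SE 0.34), 1.03 (SE 0.35) and 0.01 (SE 0.43). With cisplatin the value lay close to 2-fold and was 0.87 when the cisplatin sample 3 was left out. Pooled over the 3 samples of a group, the count ratio to control was 2.33 (95% exact counting interval 1.56 to 3.54) with iohexol and 2.06 (1.38 to 3.14) with cisplatin. Of its 31-base sequences 0.78% occur in another gene, CYP1A2.

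CYP1B1 encodes another AHR-regulated enzyme, which oxidizes estrogens and hydrocarbons and is common outside the liver (chr2:38066973-38109902, minus strand). The levels were 74.6, 69.7 and 69.2 CPM in the control samples, 32.5, 32.9 and 40.2 with iohexol, 61.3, 62.1 and 61.2 with cisplatin and 118.9, 102.9 and 87.9 with vancomycin. No 2 groups overlapped, in the order iohexol, cisplatin, control and vancomycin. The means were 71.2 ± 3.01 CPM in the control group, 35.2 ± 4.35 with iohexol, 61.5 ± 0.494 with cisplatin and 103.2 ± 15.5 with vancomycin. The log2 fold change with iohexol was -0.999 (SE 0.11), just inside the 2-fold limit, and it ranged from -1.10 to -0.95 when single samples were left out. With vancomycin it was 0.49 (SE 0.10). The cisplatin value of -0.21 (SE 0.07) became 0.0057 with scaling by library size only, which moved the median of all genes in that comparison from 0.0074 to 0.23. Thus CYP1A1 and CYP1B1 went in opposite directions with iohexol. Other genes overlap 13% of its exonic bases, and those on the opposite strand, RMDN2 and CYP1B1-AS1, had group means of 1.53 to 3.54 CPM.

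**Figure D2:**
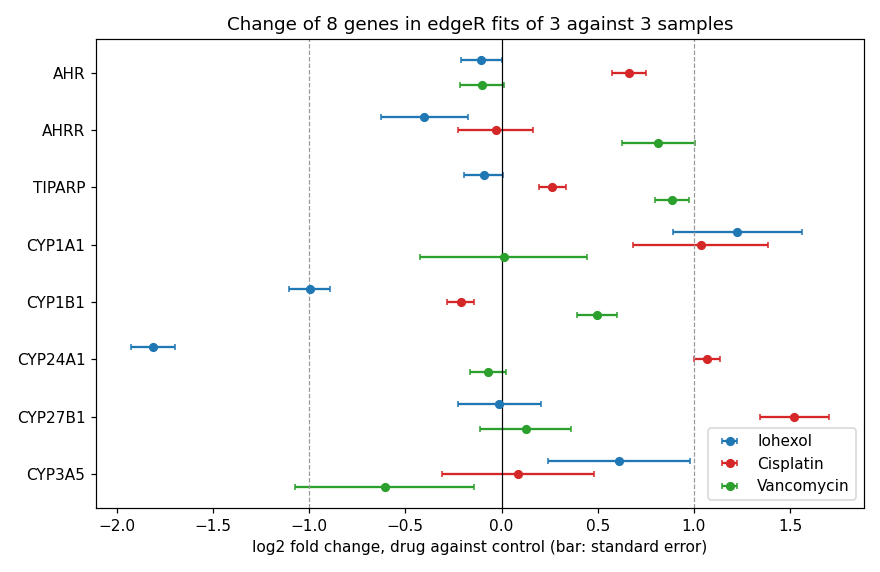
Log2 fold change of 8 genes in each drug group against control (x axis; y axis, gene), with bars for the standard error and dashed lines at 2-fold; CYP17A1 is left out because its control samples had 1 count each. CYP24A1 is at -1.81 with iohexol and 1.07 with cisplatin, and CYP1A1 is above 1 with both of these drugs.

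CYP24A1 encodes the mitochondrial 24-hydroxylase that inactivates vitamin D (chr20:54153449-54173973, minus strand). Its levels were 73.4, 68.4 and 66.0 CPM in the control samples, 17.1, 21.1 and 20.2 with iohexol, 142.2, 150.3 and 144.0 with cisplatin and 71.1, 63.8 and 68.7 with vancomycin. Iohexol samples lay far below and cisplatin samples far above, while the vancomycin and control samples overlapped. The mean of 69.2 ± 3.81 CPM in the control group stood against 19.5 ± 2.12 with iohexol, 145.5 ± 4.25 with cisplatin and 67.9 ± 3.71 with vancomycin. Log2 fold changes were -1.81 (SE 0.11), 1.07 (SE 0.07) and -0.07 (SE 0.10). None of its 31-base sequences (0%) occur in another annotated gene.

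CYP27B1 encodes the 1-alpha-hydroxylase that makes active vitamin D in the same organelle (chr12:57762334-57768986, minus strand). It had 50, 46 and 55 counts in the control samples, 44, 51 and 54 with iohexol, 155, 132 and 195 with cisplatin and 53, 57 and 68 with vancomycin. The cisplatin samples stood apart, and the other groups overlapped their neighbours in the order of levels. At 9.68 ± 1.72 CPM against 3.38 ± 0.425 in the control group, the log2 fold change with cisplatin was 1.52 (SE 0.18). It was -0.01 (SE 0.21) with iohexol and 0.12 (SE 0.23) with vancomycin. So both vitamin D hydroxylases were higher with cisplatin, and with iohexol only CYP24A1 was lower by more than 2-fold. METTL1, a same-strand neighbour that shares 3.11% of the exonic bases of CYP27B1, was at 12.6 CPM in the control group and 16.1 with cisplatin.

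CYP17A1 encodes the 17-hydroxylase and lyase of adrenal and gonadal steroid synthesis (chr10:102830531-102837533, minus strand). It was all but absent from the control group, with 1 count in each of the 3 samples, and had 59, 36 and 75 counts with iohexol. The cisplatin samples had 3, 5 and 5 counts and the vancomycin samples 8, 6 and 4. The iohexol samples were above all others, at 3.80 ± 1.38 CPM, and the cisplatin and vancomycin samples overlapped each other, at 0.262 ± 0.0695 and 0.384 ± 0.128 CPM. The 3 control counts against 170 with iohexol gave a ratio of 56.5 with an exact 95% counting interval of 19.0 to 277. For cisplatin the ratio was 3.92 (1.08 to 21.4) on 13 counts and for vancomycin 5.73 (1.67 to 30.4) on 18 counts, which are levels near the floor. CYP17A1 passed the filter for testing with iohexol only. WBP1L, on the opposite strand, covers 41.1% of the exonic bases of CYP17A1, and the strand setting of the counting is not given in the sources used here. WBP1L, named after its values were seen, was at 43.3 ± 1.03 CPM in the control group, 47.3 ± 3.91 with iohexol, 40.5 ± 1.49 with cisplatin and 52.7 ± 4.90 with vancomycin, and the part of its reads in the CYP17A1 counts was not tested.

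CYP3A5 encodes the CYP3A enzyme typical of kidney, which oxidizes many drugs (chr7:99648194-99680026, minus strand). The counts were 15, 9 and 20 in the control samples, 20, 21 and 26 with iohexol, 14, 15 and 23 with cisplatin and 10, 14 and 7 with vancomycin. The iohexol samples were just above the control samples, the lowest at 1.34 CPM against 1.32 for the highest control, and every pair of neighbouring groups in the order of levels overlapped. The log2 fold changes of 0.61 (SE 0.37), 0.09 (SE 0.39) and -0.61 (SE 0.47) were each less than 2 standard errors. The value with cisplatin changed sign, to -0.22, without the control sample 2. Of its 31-base sequences 10.2% occur in other genes, CYP3A4 among them.

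Compared per kilobase of gene length, CYP24A1 and CYP1B1 were the most abundant P450 transcripts in the control cells. The family list holds 57 P450 genes, of which 6 had 0 counts in all 12 samples and 22 were tested in at least 1 comparison. CYP24A1 stood at 17.4 ± 0.958 CPM per kb and CYP1B1 at 11.8 ± 0.500, ahead of CYP27A1, the sterol 27-hydroxylase, at 6.29 and CYP2S1 at 5.04. CYP27B1 was at 0.981 ± 0.124, CYP1A1 at 0.232 ± 0.0642, CYP3A5 at 0.146 ± 0.0570 and CYP17A1 at 0.0195 CPM per kb. CYP17A1 was at 1 count in each control sample and entered the tested genes through its iohexol samples only. PTGIS and CYP26B1 were likewise tested with vancomycin only and with cisplatin only. The filter thus set which genes of low control level were ranked.

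**Figure D3:**
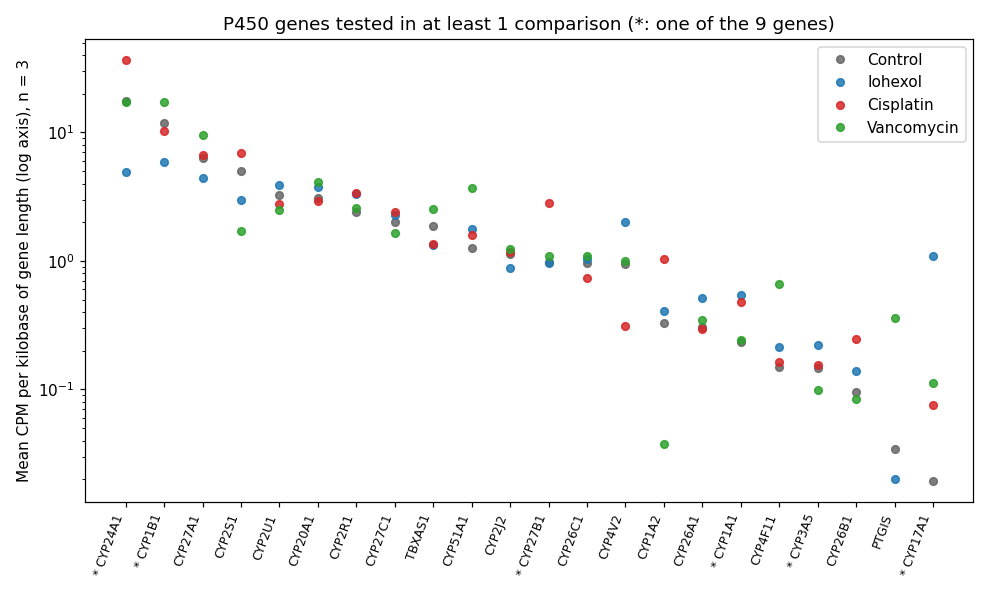
Mean level of the 22 P450 genes tested in at least 1 comparison (y axis, CPM per kilobase of gene length, log axis; x axis, genes ordered by the control mean; n = 3 per group), with points for the 4 groups and a star at the genes described above. CYP24A1 and CYP1B1 are at the left, at 17.4 and 11.8 CPM per kb in the control group, and CYP17A1 is at the right, at 0.0195.

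The remaining 51 P450 genes and 9 redox partners were read as a list. At an adjusted p under 0.05 were 8 of 22 tested genes with iohexol, 11 of 23 with cisplatin and 15 of 23 with vancomycin. Most of them were short of 2-fold. Here and in the following lists, no share of all genes past a p threshold alone is given. Counts by p alone thus cannot be set against the shares that follow, which also require 2-fold. The counts of DEGs in this and the following lists stand against the shares of all genes, 4.02% up-regulated and 1.25% down-regulated with iohexol, 7.62% and 8.72% with cisplatin and 10.8% and 7.65% with vancomycin, and no list was tested against them. The 6 P450 genes described above had been taken out of this list. With iohexol 1 of 22 tested genes rose and 0 fell by the DEG rule in edgeR, where 11 had an unadjusted p under 0.05, and the median log2 fold change was 0.26 against 0.012 for all genes. The gene that rose was CYP4V2, a fatty acid hydroxylase, from 9.28 ± 1.45 to 19.7 ± 1.07 CPM (log2 fold change 1.11, SE 0.15, edgeR adjusted p = 0.000259), and without the control sample 2 its value was 0.98, under the limit. With cisplatin CYP4V2 fell to 3.06 CPM (-1.60, SE 0.19, adjusted p = 1.58e-06). CYP1A2, the caffeine-oxidizing neighbour of CYP1A1, rose with cisplatin from 0.900 to 2.82 CPM (1.62, SE 0.30, adjusted p = 0.000173). CYP26B1, which clears retinoic acid, was the other cisplatin DEG, but its samples overlapped the controls and its log2 fold change of 1.32 ranged from 0.85 without the control sample 1 to 2.34 without the control sample 3. CYP26B1 passed the filter for testing with cisplatin only. In all 2 of 23 tested genes rose and 1 fell with cisplatin, with a median of 0.070 against 0.0074.

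With vancomycin 4 of the 23 tested genes of this list rose and 2 fell, where 10.8% and 7.65% of all genes did, with a median log2 fold change of 0.15 against -0.0084 for all genes. POR, the electron donor of microsomal P450 enzymes, rose from 65.8 to 154.2 CPM (1.19, SE 0.09, edgeR adjusted p = 8.5e-11). CYP51A1, the lanosterol demethylase of cholesterol synthesis, rose from 4.52 to 13.2 CPM (1.51, SE 0.17, adjusted p = 5.75e-08), but 83% of its 31-base sequences are shared, mainly with a read-through transcript. CYP4F11, another fatty acid hydroxylase, rose from 0.600 to 2.64 CPM (2.08, SE 0.41, adjusted p = 0.000122). PTGIS, prostacyclin synthase, had 9 counts in the control group and 95 with vancomycin, a ratio of 10.1 with a counting interval of 5.09 to 22.7. Its samples ranged from 0 to 5 counts in the control group and from 13 to 50 with vancomycin. The fitted log2 fold change was 3.25 (SE 0.60). PTGIS passed the filter for testing with vancomycin only, so it entered this list through the group where it was high. CYP2S1, a dioxin-inducible P450, fell from 14.5 to 4.87 CPM (-1.61, SE 0.19, adjusted p = 9.9e-08). CYP1A2 fell to 5 counts from 41 in the control group, a ratio of 0.117 (0.0359 to 0.295). The fitted log2 fold change was -3.04. It ranged from -3.69 without the vancomycin sample 1 to -2.52 without the vancomycin sample 2. CYP1A1, next to it on the chromosome, was at 0.829 CPM with vancomycin and 0.798 in the control group.

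The partners of the receptor came next. The list of AHR partners and coactivators held 10 genes, all tested with each drug. With iohexol 0 of 10 were DEGs in edgeR, DESeq2 or limma-voom, and 5 had an unadjusted p under 0.05. The chaperone gene HSP90AB1 was at 1810 CPM in the control group and 1296 with iohexol (-0.46, SE 0.08, edgeR adjusted p = 0.00173). ARNT, the partner on DNA, was at 42.9 CPM in the control group, 38.5 with iohexol, 39.9 with cisplatin and 49.7 with vancomycin, with log2 fold changes of -0.14 (SE 0.10), -0.11 (SE 0.08) and 0.17 (SE 0.10). ARNT2, its paralog, fell with cisplatin from 0.819 to 0.262 CPM (-1.62, SE 0.47, adjusted p = 0.00700). Its control samples had 10 to 14 counts, and the cisplatin level was near the floor of 0.177 to 0.218 CPM. It was not tested when at least 10 counts were required in every sample. NCOA2, a coactivator, was lower with cisplatin (-0.89, SE 0.07) and vancomycin (-0.81, SE 0.11), short of 2-fold.

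Other genes known as AHR targets moved in both directions with vancomycin. Of 17 listed targets, 10 were tested with iohexol and 1 fell, HES1, a transcriptional repressor, from 48.9 to 22.3 CPM (-1.12, SE 0.12, edgeR adjusted p = 6.09e-05). Of 9 tested with cisplatin 1 rose, the CYP1A2 already described. With vancomycin 2 of 10 rose and 3 fell, with a median of 0.00028. The quinone reductase NQO1 rose from 93.7 to 282.3 CPM (1.55, SE 0.09, edgeR adjusted p = 8.1e-13). The efflux transporter ABCG2 rose from 0.625 to 6.57 CPM (3.30, SE 0.34, edgeR adjusted p = 1.08e-08). ABCG2 did not pass the filter for testing with cisplatin, so with vancomycin it entered this list through the samples where it was high. Its value ranged from 2.92 without the control sample 1 to 3.92 without the control sample 2. EREG, an EGF receptor ligand, fell from 430.6 to 198.3 CPM (-1.16, SE 0.09, adjusted p = 1.65e-10), along with CYP1A2 and CYP2S1. NQO1 and ABCG2 thus rose with vancomycin, where AHRR, TIPARP and CYP1B1 were also highest. CYP1A1 was not higher there, and CYP1A2, CYP2S1 and EREG fell.

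Enzymes that turn tryptophan into AHR ligands or take those ligands onward were examined as another list of 10 genes. With vancomycin 2 of 7 tested rose and 0 fell, 5 having an unadjusted p under 0.05, and the median was 0.59. KYNU, kynureninase, rose from 2.11 ± 0.184 to 26.0 ± 3.84 CPM (3.57, SE 0.17, edgeR adjusted p = 2.41e-14). KMO, kynurenine monooxygenase, rose from 0.602 to 1.71 CPM (1.46, SE 0.41, adjusted p = 0.00406), although 27.8% of its 31-base sequences are shared with other genes. KMO did not pass the filter for testing with cisplatin, so with vancomycin it too entered its list through the samples where it was high. With iohexol 0 of 7 and with cisplatin 0 of 6 were DEGs in edgeR, DESeq2 or limma-voom, and 2 and 3 had an unadjusted p under 0.05. Over the 3 AHR lists together, 37 genes in all, iohexol had 0 up and 1 down of 27 tested (4.02% and 1.25% of all genes), cisplatin 1 and 1 of 25 (7.62% and 8.72%) and vancomycin 5 and 3 of 27 (10.8% and 7.65%). The medians of their log2 fold changes were 0.097, -0.060 and 0.17, against 0.012, 0.0074 and -0.0084 for all genes.

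The vitamin D genes around CYP24A1 and CYP27B1 were read from a list of 20 receptors, uptake genes and targets. VDR, the vitamin D receptor, was at 8.52 ± 0.479 CPM in the control group, 7.42 ± 0.453 with iohexol, 15.3 ± 1.54 with cisplatin and 15.4 ± 0.514 with vancomycin. The log2 fold changes were -0.18 (SE 0.15), 0.84 (SE 0.13) and 0.81 (SE 0.14), each under 2-fold. CYP24A1 was highest with cisplatin and not higher with vancomycin than in the control group. VDR was at near equal levels in both of these drug groups, and a link between VDR and CYP24A1 was not tested. RXRA, the partner of VDR, fell with cisplatin from 84.1 to 34.4 CPM (-1.29, SE 0.07, edgeR adjusted p = 1.22e-10). With vancomycin RXRA was at 118.4 CPM (0.45, SE 0.09), short of 2-fold. KL, which encodes the FGF23 co-receptor Klotho, fell with cisplatin from 33.9 to 5.95 CPM (-2.51, SE 0.13, adjusted p = 2.98e-11). SPP1, osteopontin, fell with cisplatin from 1154 to 374.7 CPM (-1.63, SE 0.06, adjusted p = 4.29e-13) and rose with vancomycin to 3576 CPM (1.59, SE 0.09, adjusted p = 3.45e-13). In all 0 of 10 tested genes rose and 3 fell with cisplatin, and 3 of 11 rose and 0 fell with vancomycin.

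THBD, the thrombin cofactor thrombomodulin, was among the vancomycin genes that rose, from 4.50 to 24.4 CPM (2.39, SE 0.14, edgeR adjusted p = 1.19e-12). CD14, the lipopolysaccharide co-receptor, rose from 0.790 to 2.83 CPM (adjusted p = 0.000201). With iohexol 2 of 11 rose and 1 fell. CUBN, the cubilin receptor for vitamin D binding protein, rose from 0.707 to 1.98 CPM (1.48, SE 0.34, adjusted p = 0.00956). CUBN did not pass the filter for testing with cisplatin, so with iohexol it entered this list through the samples where it was high. CD14 was also called with iohexol (1.14, SE 0.34, adjusted p = 0.0356), but it lost the call in 8 of the alternative fits and had an adjusted p of 0.171 without the control sample 2. THBD fell with iohexol to 2.14 CPM (-1.05, SE 0.23, adjusted p = 0.00648), and was at -0.90 without the iohexol sample 1. CYP2R1 and CYP27A1, the P450 enzymes that make 25-hydroxyvitamin D, had no DEG call with any drug, with log2 fold changes of 0.48, 0.47 and 0.055 for CYP2R1 and -0.50, 0.070 and 0.55 for CYP27A1 with iohexol, cisplatin and vancomycin.

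**Figure D4:**
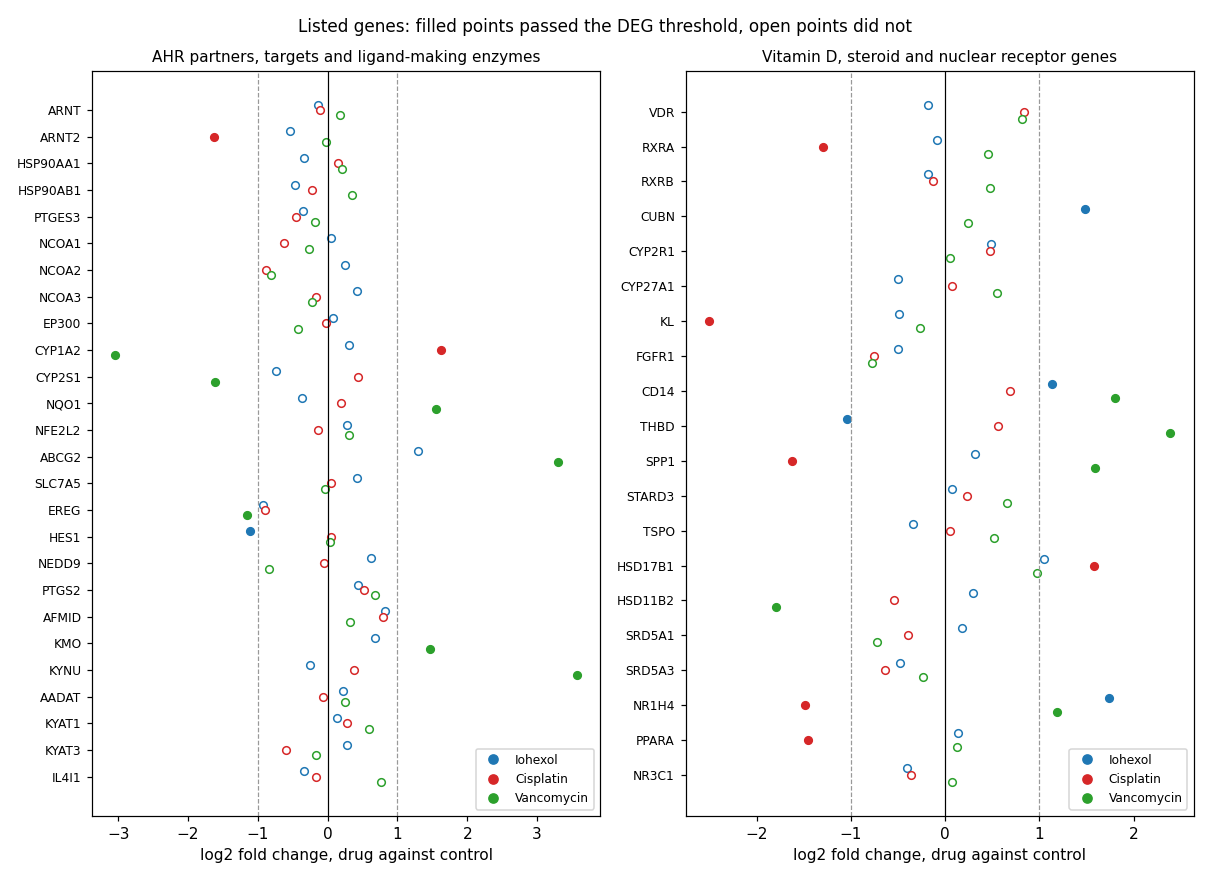
Log2 fold change (x axis) of the tested genes reported here (y axis) of the AHR lists, left, and of the vitamin D, steroid and nuclear receptor lists, right, with filled points for DEGs, open points for the others and dashed lines at 2-fold. KYNU at 3.57 and ABCG2 at 3.30 with vancomycin and KL at -2.51 with cisplatin lie farthest out among the filled points, together with CYP1A2 at -3.04 with vancomycin.

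Steroid synthesis, the pathway of CYP17A1, was read from another list. Of 19 listed genes of steroid hormone synthesis, 6 were tested with each drug, and the P450 genes of that pathway other than CYP17A1, 5 in the list, had 0 tested. With iohexol 0 of 6 were DEGs in edgeR, DESeq2 or limma-voom, with 3 at an unadjusted p under 0.05, where 4.02% of all genes were up-regulated and 1.25% down-regulated. HSD17B1, which makes estradiol, was at 0.707 CPM in the control group and 1.46 with iohexol (1.05, SE 0.38, edgeR adjusted p = 0.0680), and it rose to 2.14 CPM with cisplatin (1.58, SE 0.36, adjusted p = 0.00124), with 36.8% of its 31-base sequences shared with other genes. HSD11B2, which inactivates cortisol, fell with vancomycin from 4.66 to 1.37 CPM (-1.79, SE 0.28, adjusted p = 7.75e-06).

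Of 7 listed receptors and factors that regulate P450 genes in the liver, 3 were tested. NR1H4, the bile acid receptor FXR, rose with iohexol from 3.53 to 11.6 CPM (1.74, SE 0.22, edgeR adjusted p = 0.000152) and fell with cisplatin to 1.25 CPM (-1.49, SE 0.32, adjusted p = 0.000672). It rose with vancomycin to 8.22 CPM (1.19, SE 0.22, adjusted p = 5.09e-05), with 0.97 without the control sample 2. PPARA, the fatty acid sensor, fell with cisplatin from 42.7 to 15.5 CPM (-1.46, SE 0.10, adjusted p = 8.78e-10). Over the vitamin D, steroid and receptor lists together, 46 genes in all, iohexol had 3 up and 1 down of 20 tested (4.02% and 1.25% of all genes), cisplatin 1 and 5 of 19 (7.62% and 8.72%) and vancomycin 4 and 1 of 20 (10.8% and 7.65%). The medians were -0.0094, -0.36 and 0.46, against 0.012, 0.0074 and -0.0084 for all genes.

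For each of the 9 genes, the 3 of 12669 protein-coding genes with the most similar log2 CPM over the 12 samples were listed, as a description over samples that share 4 treatments. TIPARP was most similar to NQO1 and GCLM (Pearson's r = 0.980 for both) and ACBD3 (0.979). GCLM, a subunit of the enzyme that starts glutathione synthesis, was at 85.2 CPM in the control group and 166.7 with vancomycin. AHRR was nearest to IFITM1 (0.972), RAP1GAP2 (0.963) and TMEM39B (0.962). AHR was nearest to RAB23 (0.979), FBXO33 (0.979) and TOP1 (0.976), the last encoding DNA topoisomerase I, at 158.3 CPM in the control group and 216.7 with cisplatin.

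The P450 genes had other neighbours. CYP1A1 was nearest to C5AR1 (0.953), a complement receptor, then TTYH1 (0.951) and ELOVL4 (0.926). CYP1B1 was nearest to the chemokine gene CXCL5 (0.974), NT5E (0.974), which encodes the adenosine-making CD73, and CNBP (0.969). CYP24A1 was nearest to NAV3 (0.983), the survival gene MCL1 (0.982) and THBS2 (0.976), and CYP27B1 to SCML1 (0.979), MBD1 (0.969) and ARMCX5 (0.968). CYP17A1 was nearest to PRSS35 (0.973), SLC38A2 (0.965), an amino acid transporter, and RAB17 (0.960). PRSS35 was at 0.731 CPM in the control group and 19.5 with iohexol, and RAB17 at 1.31 and 21.0. For CYP3A5, the values were lower, at 0.873 for DUS4L, 0.869 for CCL28 and 0.860 for ZNF667. No gene was among the nearest of 2 members.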

How the data were processed

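RNA of 12 HK-2 samples in 4 groups was sequenced, and groups were taken from the treatment labels. The authors deposited raw counts of reads per gene for 58735 genes, as whole numbers without normalization. The submitters' processing notes name CASAVA 1.8, fastp, HISAT2 2.0.5, featureCounts 1.5.0-p3 and DESeq2 1.20.0. The genome build, the annotation and the strand setting are not given in the sources used here, and 58724 genes had the same start and end in GENCODE release 29 on GRCh38, which supplied positions, exon overlaps and shared 31-base sequences. All sample columns were matched to samples by name.

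Each drug group was compared with the control group in its own fit by edgeR 4.0.16 in R 4.3.3 (TMM, filterByExpr at 10 counts and 15 in total, glmQLFit and glmQLFTest, Benjamini-Hochberg adjustment over all genes tested). The standard error was taken as the log2 fold change over the square root of F. CPM values use the TMM factors of all 12 samples, and log2 CPM a prior count of 2. Count ratios have exact conditional binomial intervals, which cover counting error only, since no molecular identifiers are described. The p-values measure only the spread between the samples. The steps were tested on simulated counts.

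The 9 genes and all lists were chosen with earlier results of these data known. The genes named were the 9, the DEGs and main partners of the lists, and for each of the 9 genes the 3 protein-coding genes of at least 1 CPM with the largest Pearson's r. Some genes of the lists are counted but not reported here by name. Alternatives were RLE factors, library size only, no filter, at least 10 counts in every sample, DESeq2 1.42.0, limma-voom (limma 3.58.1), one fit of the 4 groups, a block for the replicate number, and leaving out each sample. Figures were drawn with matplotlib 3.10.9.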

Additional observations from a re-analysis of the deposited data

How the results depend on the processing

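No called value changed sign in any alternative fit. Of 343 alternative values of the 9 genes, 336 moved by less than the spread between replicates, and of 450 values of the DEGs named from the lists 432 kept their call. The 18 lost calls were of 5 genes, CYP4V2, CD14 and THBD with iohexol, CYP26B1 with cisplatin and NR1H4 with vancomycin. Scaling by library size only moved the all-gene median to 0.084, 0.23 and -0.085 (log2) with iohexol, cisplatin and vancomycin, and of the 7 values of the 9 genes that moved, 6 did so under it and 1, CYP17A1 with iohexol, in limma-voom.

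The count of AHR pathway DEGs with iohexol was 1, and 2 with library size only, without a filter, in limma-voom and in one fit of all 4 groups, and 1 to 2 when samples were left out. Among the other P450 genes and redox partners with iohexol it was 1, 2 without a filter, and 0 to 2 when samples were left out, with 0 without the control sample 2. Requiring at least 10 counts in every sample, which tests fewer genes, gave 2 in place of 4 vitamin D, steroid and receptor DEGs with iohexol, 1 in place of 3 of the 9 genes past 2-fold with iohexol, 1 in place of 3 P450 and 0 in place of 2 AHR pathway DEGs with cisplatin, and 3 in place of 6 and 5 in place of 8 of these with vancomycin. Without a filter the P450 count with cisplatin was 5. Of the 9 genes, 1 was past 2-fold with vancomycin without a filter and in one fit of all 4 groups, in place of 0, and in the latter it was CYP17A1, whose control samples had 1 count each.

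The labels give the same replicate numbers in every group. Same-numbered samples had correlations of their deviations of -0.184 to 0.103, so the number was taken as a name only. With the replicate block the counts of the 9 genes past 2-fold were 4 with iohexol, 3 with cisplatin and 0 with vancomycin, those that also passed the adjusted p were 3 with iohexol (CYP1A1 lost and CYP1B1 gained), 3 and 0, and those of AHR pathway DEGs 1, 2 and 8. Depth limits CYP17A1, CYP1A1 and CYP3A5 most, with at most 75 counts in a sample.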
